A study of Mus musculus with 18 samples.

Results

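AU-rich pentamer clusters are 3′ UTRs that hold the core of the AU-rich element, ATTTA as written in DNA letters, at least 2 times. The members were all nuclear mRNA isoforms with a 3′ UTR of at most 1200 nt and 2 or more pentamers, counted with overlaps on the transcript strand. By this rule 554 of the 6636 isoforms with decay data were members (8.35%), and 378 of the 7123 isoforms with polysome data (5.31%). The rule used sequence alone and no measured value. Their reference was the isoforms of at most 1200 nt with no pentamer, of which there were 4178 with decay data and 4521 with polysome data.

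The isoforms came from TIF-seq2, a method that reads the first and the last base of the same mRNA molecule, applied to wild-type mouse myotubes. Primary myoblasts of the gastrocnemius of female mice had fused for 24 h in the ERK inhibitor SCH772984 at 1 µM, which every library shares. For decay, actinomycin D at 7.5 µg/ml blocked transcription, and cells were sampled 0, 3, 6 and 12 h later, each time from 3 mice (12 libraries). For polysome profiling, cells spent 5 min in 100 µg/ml cycloheximide, and free, light (2 to 5 ribosomes) and heavy (6 or more) fractions were taken from 2 mice each (6 libraries). Each isoform carries 1 pooled coverage count with a half-life in the decay data or a translation efficiency (TE) in the polysome data. No value belongs to a single library, so replicate error is unknown and all comparisons below are descriptions with no test. Neither the unit of the half-life nor the formula of TE was stated.

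AU-rich elements are binding sites for proteins that act on mRNA. TTP (the product of Zfp36) and KSRP recruit the machinery that shortens the poly(A) tail and degrades the message, whereas HuR (Elavl1) is known to protect its targets. In differentiating muscle, HuR and KSRP are known to act in opposite directions on short-lived mRNAs of the myogenic programme. Clustered and overlapping pentamers, and the nonamer formed by the pentamer with a pair of T on each side, are known as stronger forms of the element.

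The clusters took very different shapes, and the following stretches of at most 30 nt show the range from tandem repeats to isolated pentamers. Capitals mark each pentamer, so that runs of capitals longer than 5 letters are overlapping pentamers that share an A. All are printed 5′ to 3′ on the transcript strand, as deposited with isoform positions on GRCm39.
Mllt11: tctatATTTATTTATTTATTTATTTAtctg
Rusc2: tgtATTTATTTATTTAttATTTATTTAtta
chr7:45172346-45175648: tcctattATTTATTTATTTATTTAtttgaa
Rab3a: tATTTAttattgtagctATTTATTTATTTA
Fgf21: acgggtATTTAtcttATTTATTTAttttag
Ccn1: agaATTTATTTAtaaaattaatcATTTAat
Chmp5: gatATTTAatgtataggacATTTATTTAta
Bysl: gtgcggagaaaacaggcATTTATTTAtcgc
Itm2a: tcatgctATTTActcatacATTTActctat
Ybx3: ATTTAagaagaaattttatgcccttATTTA
Csrp1: gATTTAtcatctgatcaataaagcaATTTA
The first stretch, from bases 170 to 199 after the stop codon of an Mllt11 isoform at chr3:95126448-95135545 (minus strand), held the longest tandem run of all members, 5 pentamers. The Rusc2 stretch (chr4:43382069-43427086, plus strand) packed 5 pentamers into 30 nt. The last 2 stretches show the more common form, in which the pentamers lie apart.

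Both tables together held 467 distinct member 3′ UTRs with 1196 pentamers. Of these sequences, 66 were the start of a longer one in the set, so that nested 3′ ends of a gene share bases and the sequences are not independent. Among all 4462 distinct 3′ UTRs of at most 1200 nt, 30.7% held a pentamer, 10.5% held 2 or more, 1.05% an overlapping pair and 1.64% the nonamer.

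Most members were loose sets of pentamers. There were 301 sequences with 2 pentamers, 102 with 3 and 64 with 4 or more. The median distance between the starts of neighbouring pentamers was 88 nt, with quartiles of 23 and 214 nt and a maximum of 1010 nt. In 183 sequences (39.2%) even the closest pair was more than 100 nt apart.

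Overlap by the shared A was the most frequent arrangement among distances of up to 8 nt. A distance of 4 nt, the only overlap these letters allow, occurred 60 times (8.23% of 729 distances). Distances of 5, 6, 7 and 8 nt occurred 6, 2, 10 and 5 times. Overlapping pairs were found in 47 sequences (10.1%), as runs of 2 pentamers in 39 of them, of 3 in 5 and of 4 or more in 3. The nonamer was present in 44 sequences, 19 of which also had an overlapping pair. Without overlaps, 18 sequences would hold fewer than 2 pentamers, the Bysl 3′ UTR above among them.

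Pentamers were more frequent towards the 3′ end. With the 3′ UTR cut into 3 equal parts, the part after the stop codon held 286 of them, the middle part 384 and the part before the 3′ end 526. The last pentamer lay a median of 89 nt before the 3′ end, and in 144 sequences within 40 nt of it. In 18 sequences a pentamer overlapped AATAAA or ATTAAA, the cleavage and polyadenylation signal, in the last 40 nt. The base before a pentamer was T in 42.6% of cases, and the base after it T in 39.5%.

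**Figure D1:**
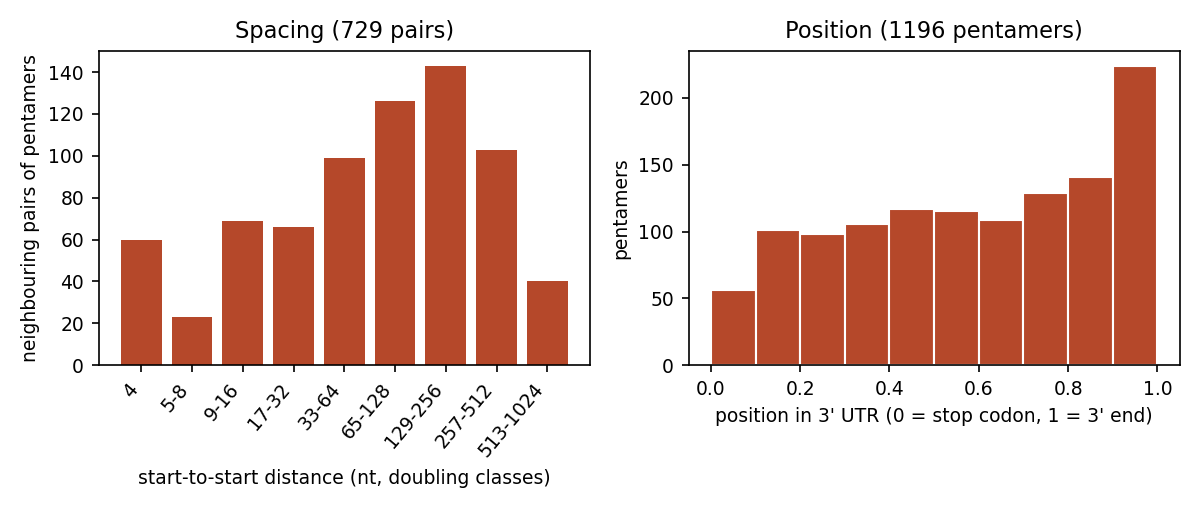
Spacing and position of pentamers in the 467 distinct member 3′ UTRs. Left, start-to-start distances in nt of the 729 neighbouring pairs, in doubling classes after a class for the overlap of 4 nt, which holds 60 pairs and stands above the class of 5 to 8 nt; right, positions of the 1196 pentamers from stop codon (0) to 3′ end (1), with the highest bar next to the 3′ end.

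Values were compared in isoforms with a coverage of at least 30 and a value above 0. These were 415 members with a half-life (324 distinct 3′ ends) and 166 with a TE (123 distinct 3′ ends), beside 3375 and 2476 isoforms with no pentamer. In the decay data the members were richer in A and T and longer. Their 3′ UTRs had a median GC content of 43.4% and a median length of 654 nt, against 51.5% and 228 nt without a pentamer. Their median coverage was 82, against 123.

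In the polysome data the members were scarcely AU-rich. Their median GC content was 51.1%, against 53.0% in isoforms with no pentamer, while the lengths were 709 and 234 nt. GC content was 50% or more in 108 of the 166 members with a TE (65.1%), but in 107 of the 415 with a half-life (25.8%). The label of an AU-rich element thus fits the letters of the pentamer in both data sets, and the composition of the whole 3′ UTR in the decay data alone. Composition close to the pentamers was not compared between the data sets.

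**Figure D2:**
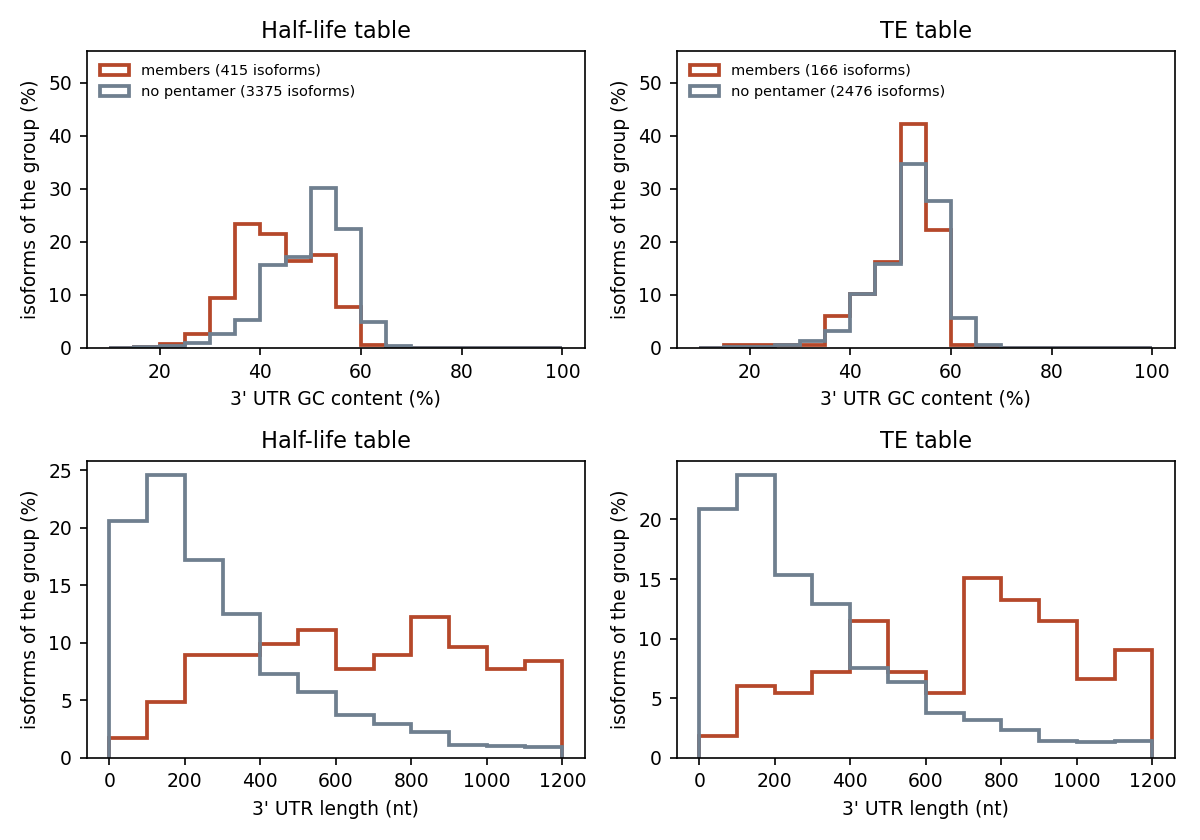
GC content (top, %) and length (bottom, nt) of the 3′ UTRs of members (red) and of isoforms with no pentamer (grey), as a percentage of each group, for half-life (left) and TE (right). Members were longer in both data sets, and their GC content peaked lower in the half-life table alone.

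A smaller share of members than of pentamer-free isoforms of the decay data was also seen in the polysome data. The same 3′ end was listed there, at any coverage, for 213 of 415 members (51.3%) and for 2700 of 3375 isoforms with no pentamer (80.0%). The gap was wider in the A- and T-rich 3′ UTRs. Below 40% GC, the end was listed for 37 of 151 members (24.5%) and for 174 of 316 isoforms with no pentamer (55.1%). From 40 to 50% GC, these counts were 79 of 157 (50.3%) and 811 of 1105 (73.4%). At 50% GC or more, they were 97 of 107 (90.7%) and 1715 of 1954 (87.8%). Median coverage in the lowest GC class was 86 for members and 119 without a pentamer, and median 3′ UTR length was 526 and 105 nt. The part of coverage and length in this gap was not tested.

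A pair of other elements was counted, on the transcript strand. The Pumilio motif (TGTA, any base, then ATA), the site of the Pumilio repressor proteins, occurred in 12.3% of members with a half-life and in 4.03% of the isoforms with no pentamer. With a TE, these shares were 18.7% and 3.84%. Among all 4462 distinct 3′ UTRs it was present in 6.77%. Members were longer, and the shares were not compared at matched length. AATAAA or ATTAAA stood in the last 40 nt of 81.2% of members with a half-life and 81.5% of isoforms with no pentamer (74.6% of all distinct 3′ UTRs). With a TE, these shares were 77.1% and 80.5%, and those of AATAAA alone 59.0% and 67.0%.

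Half-lives of members were shorter than those of all isoforms with no pentamer, and most of that gap was shared by pentamer-free 3′ UTRs of the same length and GC content. The median half-life was 9.56 (quartiles 8.10 and 11.2) in members and 11.3 (9.30 and 13.5) in isoforms with no pentamer. Isoforms with a single pentamer had 10.5. On the log2 scale, the median member lay -0.24 from the median of all pentamer-free isoforms, and 314 of 415 members were below it. In the comparison matched by both length and GC content that follows, 50.7% of all isoforms of at most 1200 nt lay below 0. This is the background for each half-life count matched by both. No background was computed for the unmatched count or for a match by length or GC content alone.

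Matching took up that gap stepwise. Against pentamer-free isoforms with a 3′ UTR length within 20%, the median difference was -0.18 (291 of 415 below 0). Against isoforms with GC content within 3 points, it was -0.14 (277 of 414 below 0). Against isoforms alike in both, of which at least 10 had to exist, it was -0.02, with quartiles of -0.28 and 0.20. Of 331 members with such a match, 175 lay below 0 (52.9%). That share was near the background of 50.7%, which rests on 4476 isoforms.

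The remaining 84 members had too few pentamer-free isoforms alike. Their median GC content was 34.9% and their median half-life 8.83. A quadratic fit of log2 half-life on length and GC over pentamer-free isoforms, added after the matched values had been seen, kept all 415 members. Their median residual was -0.03, with 231 of 415 below 0 (55.7%). That of the pentamer-free isoforms themselves was -0.03, with 1787 of 3375 below 0. Of all 4738 isoforms of at most 1200 nt, 2541 had a residual below 0. Among the most AU-rich and the most GC-rich 3′ UTRs alike, members had the lower median half-life. It was 8.89 against 9.76 without a pentamer below 40% GC, and 10.6 against 11.7 at 50% or more. The members in these classes were also longer, with median lengths of 526 and 870 nt against 105 and 275 nt.

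**Figure D3:**
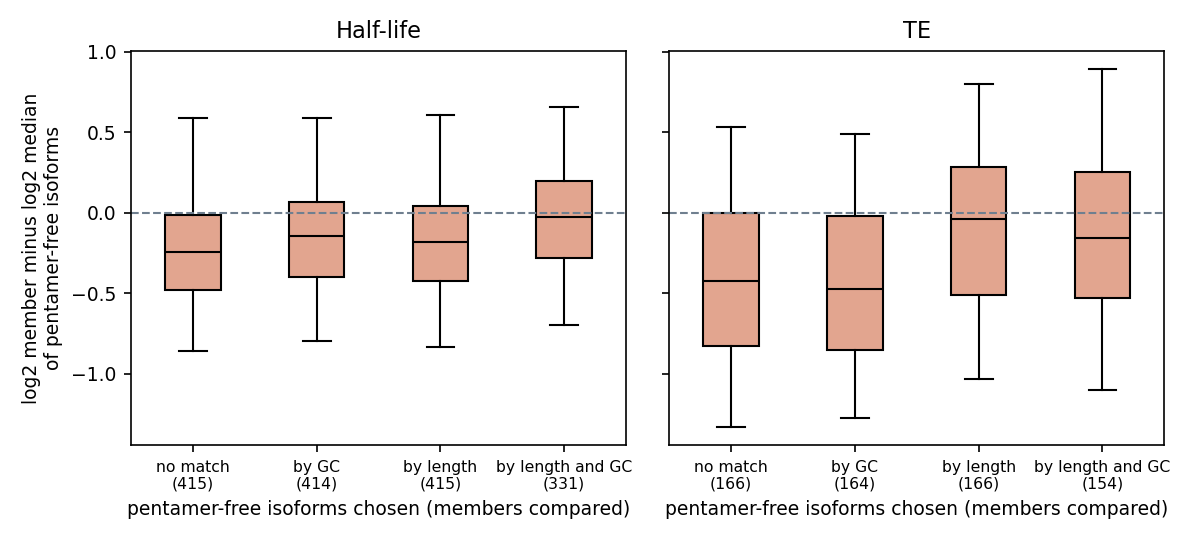
Log2 difference of each member from the median of pentamer-free isoforms, for half-life (left) and TE (right), with no match and with matches by GC content, by length, or by both. Boxes give quartiles and medians, whiskers the 5th and 95th percentiles, and numbers in brackets the members compared; the half-life median moved to -0.02 and the TE median to -0.16 when both were matched.

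TE was also lower in members than in all isoforms with no pentamer. The median TE was 0.000607 in members, against 0.000815 without a pentamer, a difference of -0.43 on the log2 scale (124 of 166 below 0). Matched by GC content alone, the difference was -0.48, and by length alone -0.04 (87 of 166 below 0). Matched by both, it was -0.16, with quartiles of -0.53 and 0.25, and 89 of 154 members lay below 0 (57.8%), against 51.6% of all 3107 isoforms treated in the same way. With 1 isoform per 3′ end, the most covered, the difference was 0.01 with 53 of 107 below 0, so the direction did not hold when each 3′ end counted once.

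The number of pentamers did not order the values. For half-life, the median matched difference was -0.03 with 1 pentamer (913 isoforms), -0.07 with 2 (241), 0.04 with 3 (72) and -0.18 with 4 or more (18). The last value covers 18 of 47 such members, since the others had no match, and the median residual of all 47 from the quadratic fit was -0.05. Unmatched, the median half-lives with 2, 3 and 4 or more were 9.58, 10.1 and 8.75, while their median GC contents were 44.6%, 42.4% and 37.4%. For TE, the median matched differences were -0.08 with 1 pentamer (594), -0.19 with 2 (116), -0.04 with 3 (31) and 0.10 with 4 or more (7).

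**Figure D4:**
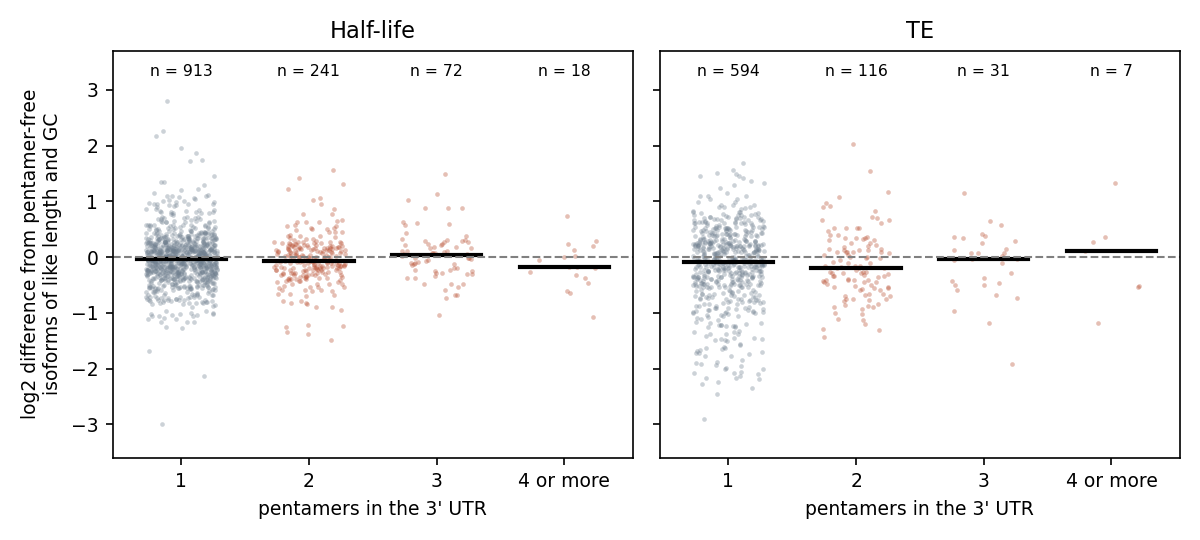
Log2 difference in half-life (left) and TE (right) from pentamer-free isoforms of like 3′ UTR length and GC content, for 3′ UTRs with 1 (grey), 2, 3 and 4 or more pentamers (red). Each point is an isoform and each bar a median; the lowest median is -0.19, for TE with 2 pentamers, and the highest 0.10, for TE with 4 or more.

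Members with an overlapping pair or a nonamer had a median matched half-life difference of -0.09, with 24 of 36 below 0. Members with neither had -0.02, with 151 of 295 below 0. For TE, the values were -0.31 (24 isoforms, 14 below 0) and -0.13 (130 isoforms, 75 below 0). Single isoforms that shared an identical 3′ UTR and differed in their 5′ end had a pooled SD of 0.37 for half-life (152 member isoforms of 61 3′ UTRs) and 0.42 for TE (66 isoforms of 23 3′ UTRs), on the log2 scale.

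Position showed no large contrast for half-life. Members whose last pentamer lay within 100 nt of the 3′ end had a median matched difference of -0.08 (170 isoforms), and the others 0.00 (161 isoforms). By closest pair, the medians were -0.09 at 4 nt, 0.00 at 5 to 20 nt, -0.02 at 21 to 100 nt and -0.02 beyond. For TE, these medians were -0.36 at 4 nt (9 of 15 below 0), 0.03 at 5 to 20 nt (12 of 27), 0.09 at 21 to 100 nt (20 of 43) and -0.27 beyond (48 of 69). Counted by isoform, the overlapping and the loosest sets were the lower classes, and the loosest had a median 3′ UTR length of 861 nt. The loosest set held 72 isoforms of 45 distinct 3′ ends, and the overlapping set 19 isoforms of 15. These classes were not compared with 1 isoform per 3′ end.

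The other 9 orders of 2 A and 3 T set a scale for the pentamer. Isoforms with at least 2 copies of an order were compared with isoforms of like length and GC content that held none of it. For half-life, the pentamer's -0.02 stood at rank 7 of 10 from the lowest, inside the range of the other orders from -0.07 to 0.04. Without a match, it had -0.24 and the others -0.30 to -0.23. For TE, the pentamer's -0.16 was the lowest of the 10, next to -0.13 for TTATA, and the highest was 0.17 for ATTAT. With 1 isoform per 3′ end, the pentamer's TE value lay -0.02 from the median of the other orders, against -0.19 with all isoforms. These sets overlap, since a 3′ UTR can hold several orders.

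Several members showed how far TE can vary above an identical pentamer cluster. Tmem38a encodes a cation channel of the sarcoplasmic reticulum. Its 1191-nt 3′ UTR, with 2 pentamers, had a TE of 0.000637 at the most covered start (chr8:73325891-73341121, plus strand, coverage 3219). The 3 other starts of that 3′ end had 0.000262, 0.000281 and 0.000337. The most covered start was thus above every other, by 1.18 from their median on the log2 scale.

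Dmpk encodes a kinase whose human gene carries, in its 3′ UTR, the repeat expanded in myotonic dystrophy. The 716-nt mouse 3′ UTR, with 3 pentamers, had a TE of 0.000794 at the most covered start (chr7:18817793-18827743, plus strand, coverage 2700). At 3 starts downstream, TE was 0.000415, 0.000438 and 0.000459. Myl12a, a regulatory light chain of non-muscle myosin, had 0.00104 at its main start (chr17:71301293-71309174, minus strand, coverage 689), against 0.000423 and 0.000493 at the others. All 3 genes had the same order, with the most covered start highest, but they were picked after their values were seen. For half-life, the most covered start was lower than the median of the others at this Tmem38a end (-0.45). It was higher at those of Dmpk (0.74) and Myl12a (0.25).

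Over all 23 member 3′ ends with several starts, the most covered start had a TE 0.25 above the median of the others on the log2 scale (quartiles -0.19 and 0.74), and it was the higher in 16. At 422 3′ ends with no pentamer, this difference was 0.03 (quartiles -0.35 and 0.37), with 220 higher. For half-life, the differences were 0.10 at 61 member ends, 36 of them higher, and 0.07 at 516 pentamer-free ends, 298 of them higher. For TE, the most covered start was the lower at 7 member ends. These included Cyth2 (-0.77), Ppp2r5b (-0.69) and an unnamed end with 6 starts at chr12:112620262 (-0.53). An unnamed gene with 8 starts at chr7:46028520 lay near 0 (-0.03). Its TE was between 0.000409 and 0.000705, with 0.000566 at its most covered start. Tmem38a also had a second end among the 23, with an 861-nt 3′ UTR (1.13).

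The annotation class of the 5′ end moved with these values. The median matched TE difference was -0.33 in the 33 members with a new start site, of which 26 lay below 0, and -0.03 in the 96 members annotated at both ends. Among isoforms with no pentamer, the same classes had -0.14 (434 isoforms) and 0.04 (1428). Median coverage was lower in members with a new start site, at 65.5 against 77. For half-life, the members' medians were -0.18 (53) and -0.05 (200), and those of isoforms with no pentamer -0.05 (736) and 0.01 (1771). Isoforms of a class can share a 3′ end and are then not independent. Distinct 3′ ends were not counted by class.

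**Figure D5:**
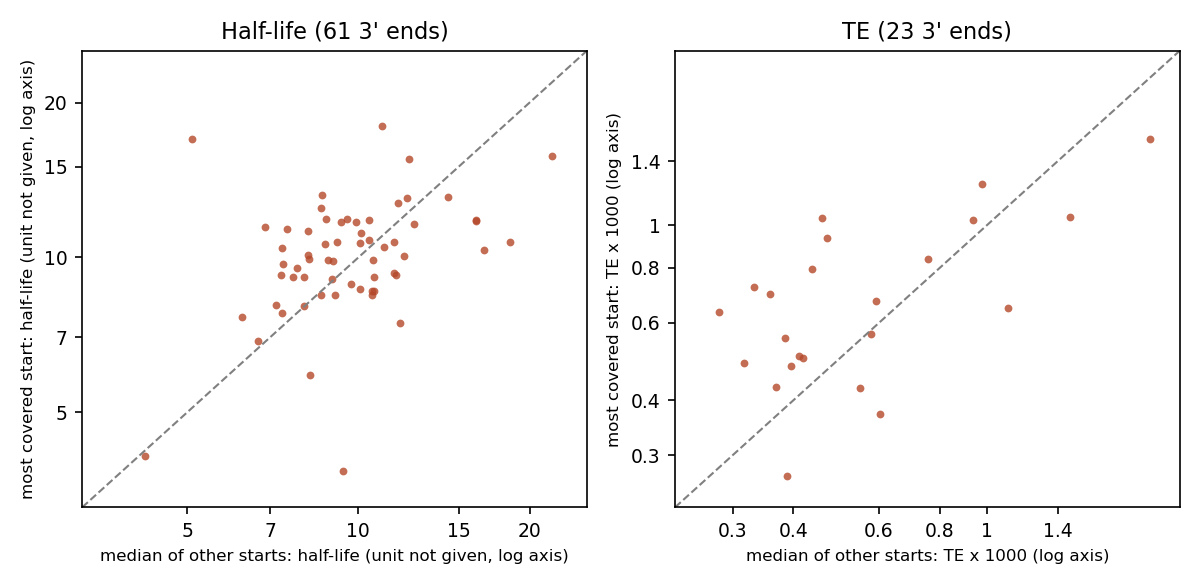
Half-life (left) and TE times 1000 (right) of the most covered start, plotted against the median of all other starts of the same member 3′ end, on log axes. Each point is a 3′ end, 61 for half-life and 23 for TE, and the dashed line marks equal values; 36 and 16 points lie above it.

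Members with the most pentamers or the longest runs were not uniformly short-lived. Fgf21 encodes a hormone that muscle secretes under stress. Its main isoform (chr7:45263327-45264910, minus strand) held 4 pentamers in a 117-nt 3′ UTR of 28.2% GC, with a half-life of 10.3 at a coverage of 4625. Its TE was 0.00120 at a coverage of 709, among the 5 highest of members covered at least 100 times. No matched set existed for so AU-rich a 3′ UTR.

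Mllt11, with 8 pentamers in 1048 nt, had a half-life of 12.5 at a coverage of 68, above the members' median, and 8.60 at a second start with a coverage of 38, below it. An unnamed isoform with the run of 4 printed above had 5.67 (chr7:45172344-45175648, coverage 144), and its end 2 nt upstream had a TE of 0.000392. Rab3a, a small GTPase of vesicle release, had 4 pentamers, a half-life of 9.10 at a coverage of 43 (matched difference -0.32) and a TE of 0.000865 at a coverage of 30 (0.35). An unnamed isoform at chr8:71082044-71084289 had 5 pentamers in 149 nt and a half-life of 8.73 at a coverage of 1495 (-0.27). Its TE, with the 5′ end 1 nt away, was 0.00105 at a coverage of 981 (0.27). In Rab3a and in this isoform, the half-life lay below and the TE above that of the matched isoforms.

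The shortest half-lives at a coverage of 100 or more belonged to unnamed isoforms. The lowest was 4.12 at chr7:46025898-46028520 (plus strand, 2 pentamers, coverage 481, matched difference -1.38). The next was 4.77 at chr11:5470980-5475890 (plus strand, 3 pentamers, coverage 264, -1.03). The first of them ended its 3′ UTR 3 nt after a pentamer and had a TE of 0.000566 (-0.23).

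The longest half-life at a coverage of 100 or more was that of Ywhaq, a 14-3-3 protein, with 27.4 for a 769-nt 3′ UTR at a coverage of 181 and 10.4 for a 1026-nt 3′ UTR of the same start at a coverage of 81. Both of these 3′ UTRs held 2 pentamers. Bpnt1, a nucleotide phosphatase, had 8.07 for its 1143-nt 3′ UTR with 6 pentamers (coverage 124) and 25.9 for its 155-nt 3′ UTR with 2 (coverage 107). Each of these values is 1 pooled estimate.

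The lowest TE at that coverage was 0.000260 in Mtfr1l (2 pentamers, chr4:134252876-134262601, coverage 100, matched difference -1.43). The highest was 0.00207 in an unnamed isoform at chr7:79744598-79765066 (minus strand, 2 pentamers, coverage 796, 1.18). Tubb3, a neuronal-type tubulin, had 0.00124 (0.69) with a half-life of 8.66 (-0.40).

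Among named members with a coverage above 800, half-lives ranged widely. Myl12a had a half-life of 11.7 at a coverage of 7327 (3 pentamers, 0.30). Csrp1, a LIM protein of the cytoskeleton, had 19.3 at a coverage of 805 (3 pentamers, 0.89) and a TE of 0.000579 at a coverage of 1697 (0.34). Tmem38a had 11.8 at a coverage of 2588 (0.20). Hspb8, a small heat shock protein, had 8.46 at a coverage of 1132 (-0.27) and a TE of 0.000599 (-0.28).

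Few classical AU-rich messages could be named. Genes were named by a match of the 5′ UTR to RefSeq promoter sequence, which named 1790 of 6636 decay isoforms and 1898 of 7123 polysome isoforms, so an unnamed gene may still be present. Of 34 mRNAs known for AU-rich elements, 2 were named in the decay data and 4 in the polysome data, and 1 and 2 of them were members by the rule. Gadd45a, a stress-induced growth arrest gene, had 2 pentamers and a half-life of 9.12 at a coverage of 247. Ier3, an immediate early gene, had 5 pentamers and a TE of 0.000746 at a coverage of 76 (0.10). Btg1, an antiproliferative gene, had 3 pentamers and a TE of 0.000405 at a coverage of only 25.

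Of 12 proteins that bind these or related elements, 1 was named, in the polysome data. This was Zfp36, whose own 3′ UTR held 3 pentamers in 774 nt, with a TE of 0.000360 at a coverage of 32. Of 18 muscle genes, 14 were named in each data set and none had a member 3′ UTR. Membership was rare in general. Of all isoforms of at most 1200 nt, 9.36% in the decay data and 6.18% in the polysome data were members. Only 29.4% and 26.1% held any pentamer, so these gene counts do not set muscle genes apart. Past the limit of 1200 nt, 2 of them had a 3′ UTR with 2 or more pentamers in the decay data, Tpm1 (coverage 177) and Acta1 (coverage 28). In the polysome data it was Acta1 alone (coverage 15). The Acta1 case was a 2100-nt 3′ UTR at a remote new 3′ end (chr8:123655451-124621490). Its main isoform, with a 240-nt 3′ UTR, held no pentamer (coverage 42409 and 28298). In 11 of the 14 no pentamer was found, Ckm, Des and Myh3 among them, so muscle mRNAs were plainly present. Of 6 myogenic mRNAs known as targets of HuR or KSRP, 2 were named in each data set. These were Myog and the cell cycle inhibitor Cdkn1a, and neither was a member. The rest of this list, Myod1 among them, may be present as unnamed isoforms, so their membership is unknown. Myog, a myogenic transcription factor, held 1 pentamer. Its main isoform had a half-life of 8.73 at a coverage of 2316 (-0.23).

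Pairs of isoforms with the same 5′ end and nested 3′ UTRs compare 3′ UTRs within a gene. In 47 pairs of the decay data, with 42 distinct longer 3′ ends, the longer 3′ UTR reached 2 pentamers and the shorter had 0 or 1. The longer form had the lower half-life in 30 of 47, with a median difference of -0.19 (quartiles -0.50 and 0.12), for a median of 397 nt added. In 121 pairs with no pentamer in either form, the longer one was lower in 72, with a median of -0.14 for 276 nt added. These pairs had to add at least 100 nt, whereas those that reached 2 pentamers added 47 nt or more. With coverage of at least 100 in both forms, the medians were -0.36 (11 of 13 lower) and -0.17 (34 of 48 lower). Of the 121 pairs, 50 added between 254 and 626.5 nt, the quartiles of the 47 pairs. Their median was -0.12, with 27 lower.

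The pair with the largest half-life difference was that of Adipor1, the adiponectin receptor. It had 9.49 in its longer form (677 nt, 2 pentamers, coverage 124) and 56.9 in its shorter (70 nt, none, coverage 116). The value of 56.9 is 1 pooled estimate, far above the upper quartile of 13.1 of all decay isoforms of at most 1200 nt compared. Arhgef2 had 7.89 in its 1187-nt form with 4 pentamers (coverage 94) and 19.2 in its 70-nt form with none (coverage 65). Acta2, smooth muscle actin, had 9.53 in its 578-nt form with 2 pentamers (coverage 327) and 12.9 in its 143-nt form with none (coverage 15534). Hnrnpc, an RNA-binding protein, had 7.15 with 2 pentamers (coverage 149) and 9.17 with 1 (coverage 334). The opposite order also occurred, as in P3h1, a collagen prolyl hydroxylase, with 10.6 in the longer form (3 pentamers, coverage 47) and 6.70 in the shorter (1 pentamer, coverage 76).

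For TE there were 8 such pairs. The longer form was lower in 6 of them, with a median of -0.10, while 77 pairs with no pentamer had -0.36 with 67 lower. Of these 77, 35 had an added length within the quartiles of the 8 pairs, and had -0.45 with 34 lower. With no coverage minimum the order turned, with -0.44 in 29 pairs that reached 2 pentamers, against -0.36 in 147 pairs with none. Arhgef2 had 0.000221 in the longer form and 0.000299 in the shorter. P3h1 had 0.000850 in the longer form and 0.000457 in the shorter, the same order as for its half-life.

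Half-life and TE were both available for 74 member isoforms (67 3′ ends). Spearman's rank correlation between them was 0.11 over these 74 isoforms, and 0.17 over 1224 isoforms with no pentamer. Isoforms of a gene share 3′ ends, and both values come from counts of the same ends, whose coverage correlated between the data sets (rank correlation 0.51 over the 74). Of 68 members matched in both, 11 were below their matched isoforms in both measures, 23 above in both, 17 lower in half-life only and 17 lower in TE only. Of 1161 isoforms with no pentamer, 282 were below in both, 383 above in both, 231 lower in half-life only and 265 lower in TE only.

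At the edge of the length limit, the half-lives just inside and just outside overlapped. Just inside were Tmem38a with 1191 nt and a half-life of 11.8, BC029722 with 1189 nt and 11.1, and Arhgef2 with 1187 nt and 7.89. The nearest isoforms past it with 2 or more pentamers were unnamed at chr4:55350073 with 1208 nt and 10.7, Dazap2 with 1235 nt and 8.66, and Fem1a with 1247 nt and 10.5. Of 416 decay isoforms past 1200 nt, 37.5% held 2 or more pentamers, and of 582 polysome isoforms 28.2%.

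Some deposited 3′ UTRs exceeded their isoform. In 18 member rows the 5′ and 3′ UTR sequences together were longer than the genomic span of the isoform, as where a start lay inside the 3′ UTR of Tmem38a. Of these, 4 entered the half-life comparison and none the TE comparison. Without such rows the median matched half-life difference of members was -0.04.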

How the data were processed

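The deposited tables list isoforms defined by 5′ and 3′ end, with UTR sequences and coordinates on GRCm39. The submitters' processing notes name STAR 2.5.3a, UMI-tools 0.5.4, cutadapt 1.16 and bcl2fastq 2.20.0. The coverage count of an isoform was deposited as a whole number pooled over libraries, and how molecules were collapsed was not stated. Half-life and TE were deposited as 1 score per isoform, some below 0, and those were left out. The tables held 0 columns for a single library, so depth and error per library are unknown. The summed coverage was 3121491 in the decay table and 1601919 in the polysome table.

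Of 554 decay members, 136 had a coverage under 30, 11 no value and 4 a value of 0 or below. Of 378 polysome members, these counts were 207, 16 and 4. Each member was set against the median log2 value of pentamer-free isoforms with 3′ UTR length within 20% and GC content within 3 points, at least 10 of them, none overlapping it. The matching was tested on simulated data, drawn from a quadratic in length and GC content plus independent noise of equal spread. Such data lack shared 3′ ends and error that depends on coverage, so that test does not cover them.

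Genes were named where at least 25 nt of the 5′ UTR matched 1 promoter window in RefSeq (GRCm38.p6), and through a shared 3′ end, a step added later. Of 1030 ends with several named isoforms, 1029 carried 1 gene name. Named members were those with most pentamers, the longest runs, the highest coverage, extreme values at a coverage of 100 or more, those at the length limit, and genes of the lists. Genes in pairs and with several starts were picked after their values were seen. Members, lists and comparisons were chosen with earlier results of these data known. Alternatives were other windows, coverage minimums, base-content and regression adjustment, and 1 isoform per 3′ end. Python 3.11.15, pandas 2.3.3 and numpy 2.4.6 were used.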

Additional observations from a re-analysis of the deposited data

How the results depend on the processing

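No paired analysis was possible because the tables hold no column of a single library, and no result comes from a test; for the same reason no replicate could be left out. Values count as moved here when they changed by more than 0.1 on the log2 scale, or counts by more than 1.5 times. Of the 18 alternatives for the matched half-life difference of members (-0.02), 16 stayed within this limit; the length match alone gave -0.18 and no match -0.24. Of the 18 for the matched TE difference (-0.16), 13 did; the length match alone gave -0.039, no match -0.43 and members with 3 or more pentamers -0.0065, and the sign turned with 1 isoform per 3′ end (0.0076) and in isoforms listed in both tables (0.0044). Matches on A and T content, on 5′ UTR length, the regression, the TE of overlapping or nonamer members, the removal of 3′ UTRs beyond their span and the alternatives for other base orders were chosen after seeing the data. A limit of 600 nt left 189 members with a half-life and 65 with a TE, and no coverage minimum gave 358 with a TE. For 3 pentamers, the half-life difference of 0.04 became -0.023 with 1 isoform per 3′ end and -0.024 at a coverage of 100, and for 4 or more -0.076 with no minimum. With 1 isoform per 3′ end, TE was -0.057 with 2 pentamers and 0.059 with 3, and the TE of overlapping or nonamer members minus the others was -0.29, against -0.18 in the main setting. With no minimum that TE difference was -0.058, and TE with 3 pentamers -0.14. At a coverage of 100, TE was 0.022 with 1 pentamer, -0.32 with 2 and 0.073 with 3. The pentamer minus the median of the other orders moved to -0.0083 for half-life, against 0.03, and to -0.017 for TE, against -0.19, with 1 isoform per 3′ end. The nested pairs had -0.36 for half-life at a coverage of 100 and -0.44 for TE with no minimum (29 pairs), against -0.36 in pairs with no pentamer. What produced these shifts was not tested.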
